A study of Mus musculus with 20 samples.

Results

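The DNAJ proteins, also called HSP40, are the co-chaperones of HSP70, and their transcripts are described here across heat-shocked mouse testes of 2 inbred strains. Members were chosen by name, as the genes whose symbol starts with Dnaja, Dnajb or Dnajc followed by a digit. The array read 44 of them with a probe set assigned to a single gene, out of 18193 genes read that way, and all 44 passed the filter on low signal that left 15762 genes for testing. Each gene was represented by its probe set with the highest mean signal, and 28 members had other probe sets as well, 104 in all.

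A DNAJ protein carries a J domain, which stimulates the ATPase of HSP70 so that HSP70 closes on an unfolded client. Class A and B proteins bind clients themselves, whereas many class C proteins bring HSP70 to one place, such as the ribosome, the mitochondrial import motor, the endoplasmic reticulum or a clathrin coat. In most cells some class A and B genes are induced by heat through heat shock factor 1, which binds repeated GAA units named heat shock elements. The testis has its own germ cell forms of both HSP70 and DNAJ, and male meiotic and postmeiotic cells are known to be sensitive to heat.

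RNA came from whole testes of C57BL/6 and AKR/N mice aged 8 weeks. In each strain there were unheated controls and testes collected 8, 10, 12 and 24 h after 15 min at 43 °C, with 2 arrays for each of the 10 groups. It is not stated whether the 2 arrays stand for separate animals, pools or repeat hybridisations, so every p-value here covers the spread between those arrays, and that spread may be technical. No collection time is given for the controls, so an effect of heat and one of sampling time cannot be told apart, and all comparisons with control in a strain share the same 2 control arrays. In whole tissue, fewer cells of a type and less RNA per cell cannot be told apart.

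The deposited values are probe-set signals on the Affymetrix mouse genome array named in the labels, with a median of 24.9 to 34.9 per array, and the r between the 2 arrays of a group, taken across genes, was 0.970 to 0.988. The number of arrays limits the precision. Germ cell and somatic markers of the testis were all read: the protamine gene Prm1 at signals of 8847 to 11480, the Sertoli cell gene Clu at 3843 to 7365, the Leydig cell gene Cyp17a1 at 404 to 3190 and the macrophage gene Csf1r at 131 to 457. At 24 h the summed signal of the Sertoli markers, 9 of 10 of which were tested, went in C57BL/6 from 6969 to 7369 in controls to 11216 to 11656. In AKR/N it went from 8244 to 8692 to 10702 to 10772, and 5 of the 9 genes were called higher in C57BL/6 and 4 in AKR/N. The 10 macrophage and leukocyte markers went from a sum of 870 to 874 to one of 1353 to 1415 in C57BL/6 and from 1208 to 1300 to 1740 to 1841 in AKR/N, with 4 called higher in each strain. The 7 spermatogonial markers summed to 2570 to 2860 in C57BL/6 controls and 1898 to 1979 at 24 h, and to 2426 to 2492 and 1675 to 1812 in AKR/N. The 10 spermatocyte markers summed to 21158 to 21163 in C57BL/6 controls and 19348 to 20227 at 24 h. In AKR/N they summed to 20148 to 21271 and 20248 to 21214. The 6 tested Leydig markers summed to 1911 to 2151 in C57BL/6 controls, 3348 to 3607 at 8 and 10 h and 2111 to 2425 at 24 h, and in AKR/N to 4130 to 4279 in controls and 2444 to 2555 at 24 h. The 8 peritubular and endothelial markers went from 1182 to 1210 to 1511 to 1649 in C57BL/6 and from 1144 to 1261 to 1591 to 1853 in AKR/N. No marker was listed at 0, and the part of these shifts in the DNAJ values was not tested. The sums are of linear signals and lean on bright genes, so a sum need not follow its other markers. Median signals were 1633 for the spermatogonial marker Dmrtb1, 5223 for Clu, 1854 for Cyp17a1, 1056 for the peritubular marker Acta2 and 9602 for the spermatocyte marker Ldhc. RNA quality was read from the beta-actin probes as the ratio of 3' to 5' signal. It was 1.91 to 2.04 on the 8 h arrays, 1.87 and 1.99 on the AKR/N 10 h arrays and 2.14 to 2.92 on controls. At 24 h it was 2.84 and 2.58 in C57BL/6, above the 8 h arrays, and 2.14 and 2.17 in AKR/N. C57BL/6 12 h replicate 2 stood apart, with a ratio of 3.57, the highest median signal (34.9) and the lowest r with its replicate. The part of the ratio in the values at any time was not tested.

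The promoters of 4 members are printed first because they hold the heat shock element and because these members differ in their response. RefSeq promoter entries on GRCm38.p6 were used for 36 of the 44 members, with 49 promoters in all, and the 250 bases before the start site were searched on both strands. The 2-unit element was spelled GAANNTTC or TTCNNGAA, and the 3-unit element GAANNTTCNNGAA, which contains both 2-unit forms. The 2-unit element stood in 7 of the 49 promoters, a share of 14.3%, against 12.8% of all 32851 promoters. The members that hold it are Dnaja1, Dnaja4, Dnajb4, Dnajb6, Dnajc10 and Dnajc27. Dnajb1 is among the members without a promoter entry, so it was not searched. The 3-unit element stood in 2 of the 49, a share of 4.08%, against 0.466% of all, and both are windows of Dnajb6 that overlap and hold the same single site, which is thus counted 2 times. The sequences run 5′ to 3′ on the gene's strand and end at the base before the start, with the matched letters in capitals; the windows are chr4:40722218-40722467 for Dnaja1, chr9:54699309-54699558 for Dnaja4, both on the plus strand, chr3:152193846-152194095 on the minus strand for Dnajb4 and chr5:29735648-29735897 on the plus strand for the first start of Dnajb6.
Dnaja1: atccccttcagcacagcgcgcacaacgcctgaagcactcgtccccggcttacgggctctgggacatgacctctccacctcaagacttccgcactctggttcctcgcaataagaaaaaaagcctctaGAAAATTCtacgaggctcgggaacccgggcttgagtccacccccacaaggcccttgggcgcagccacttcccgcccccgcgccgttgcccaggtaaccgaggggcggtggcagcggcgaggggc
Dnaja4: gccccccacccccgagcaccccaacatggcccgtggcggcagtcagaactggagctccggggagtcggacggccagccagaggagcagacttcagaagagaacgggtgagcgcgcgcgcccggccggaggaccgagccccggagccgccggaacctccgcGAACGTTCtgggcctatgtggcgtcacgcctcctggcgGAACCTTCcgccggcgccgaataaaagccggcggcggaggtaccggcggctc
Dnajb4: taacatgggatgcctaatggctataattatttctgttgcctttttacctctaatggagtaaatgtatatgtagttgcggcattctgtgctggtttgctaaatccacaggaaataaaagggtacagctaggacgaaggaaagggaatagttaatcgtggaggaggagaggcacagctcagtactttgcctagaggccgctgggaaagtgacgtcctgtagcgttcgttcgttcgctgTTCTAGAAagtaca
Dnajb6: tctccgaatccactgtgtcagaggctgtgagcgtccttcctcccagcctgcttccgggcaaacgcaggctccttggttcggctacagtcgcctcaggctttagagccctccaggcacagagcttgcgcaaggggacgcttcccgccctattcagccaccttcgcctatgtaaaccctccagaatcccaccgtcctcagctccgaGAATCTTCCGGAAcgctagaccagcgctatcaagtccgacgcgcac

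In Dnaja1 the match lies 124 to 117 bases before the start, in Dnaja4 there are matches at 90 to 83 and at 52 to 45 bases, and in Dnajb4 the match lies 14 to 7 bases before it. In Dnajb6 the 3-unit match lies 46 to 34 bases before this start. The ER stress element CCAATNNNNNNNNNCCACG, which ATF6 is known to bind, stood in 1 member promoter, that of Dnajc3, a share of 2.04% against 0.113% of all. These matches describe letters and do not show binding.

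The main question of the design is what changed after heat in each strain. Changes are differences of mean log2(signal + 16), tested with limma over all 15762 genes, and "called" stands for an adjusted p under 0.05. At 8 h no member was called in either strain, with 3 members in C57BL/6 and 7 in AKR/N at an unadjusted p under 0.05, where 0.0888% and 0.0381% of all tested genes were called. At 10 h Dnaja1, Dnaja4 and Dnajb4 rose in C57BL/6, 6.82% of the members, where 11.2% of all genes were called and 6% rose, and none was called in AKR/N, where 2.63% of all genes were called and 7 members had an unadjusted p under 0.05. At 12 h the same 3 genes rose and Dnajc28 fell in C57BL/6, 9.09% of the members against 19.1% of all genes, and in AKR/N Dnajb4 alone rose, against 7% of all genes. The C57BL/6 counts rest on single arrays: at 10 h none was called without control replicate 1, control replicate 2 or 10 h replicate 2 and 1 without 10 h replicate 1, and at 12 h 1 was called without control replicate 2 and 2 without control replicate 1 or 12 h replicate 1. The AKR/N call at 12 h was lost in 17 of the 20 fits that each left out 1 array. Without C57BL/6 12 h replicate 2, the array with the highest beta-actin ratio, 2 were called at 12 h. With arrays centred on their medians none was called at 10 h, and at 12 h 1 rose and 2 fell.

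At 24 h 12 of the 44 members were called in C57BL/6 and 10 in AKR/N, shares below those of all genes. In C57BL/6, 7 members rose and 5 fell, 27.3% of the members against 38% of all genes, of which 21.4% rose and 16.6% fell. In AKR/N 4 rose and 6 fell, 22.7% against 23.4% of all genes, of which 12.3% rose and 11.1% fell. Those that rose in C57BL/6 were Dnaja4, Dnajb4, Dnajb7, Dnajc9, Dnajc12, Dnajc13 and Dnajc14, and those that fell were Dnajb2, Dnajb9, Dnajc5g, Dnajc27 and Dnajc28. In AKR/N Dnajb7, Dnajc1, Dnajc9 and Dnajc13 rose, and Dnajb2, Dnajb5, Dnajc4, Dnajc16, Dnajc27 and Dnajc28 fell. The median absolute log2 change of the members at 24 h was 0.27 in C57BL/6 and 0.18 in AKR/N, against 0.40 and 0.32 over all genes tested. The calls on Dnaja4, Dnajb4, Dnajb7, Dnajc12, Dnajc13 and Dnajc27 in C57BL/6 and on Dnajb2, Dnajb5 and Dnajc27 in AKR/N held in all 20 fits that left out 1 array. The AKR/N count fell from 10 to 3 without control replicate 1 or without 24 h replicate 2 and to 6 without control replicate 2 or 24 h replicate 1, and median centring gave 6 rises and 7 falls in C57BL/6 and 1 rise and 3 falls in AKR/N. Across the 8 comparisons of a time with control, 17 members were called at least once and 27 never. The matching share of all genes was not computed. At 24 h in C57BL/6 alone 38% of all genes were called.

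**Figure D1:**
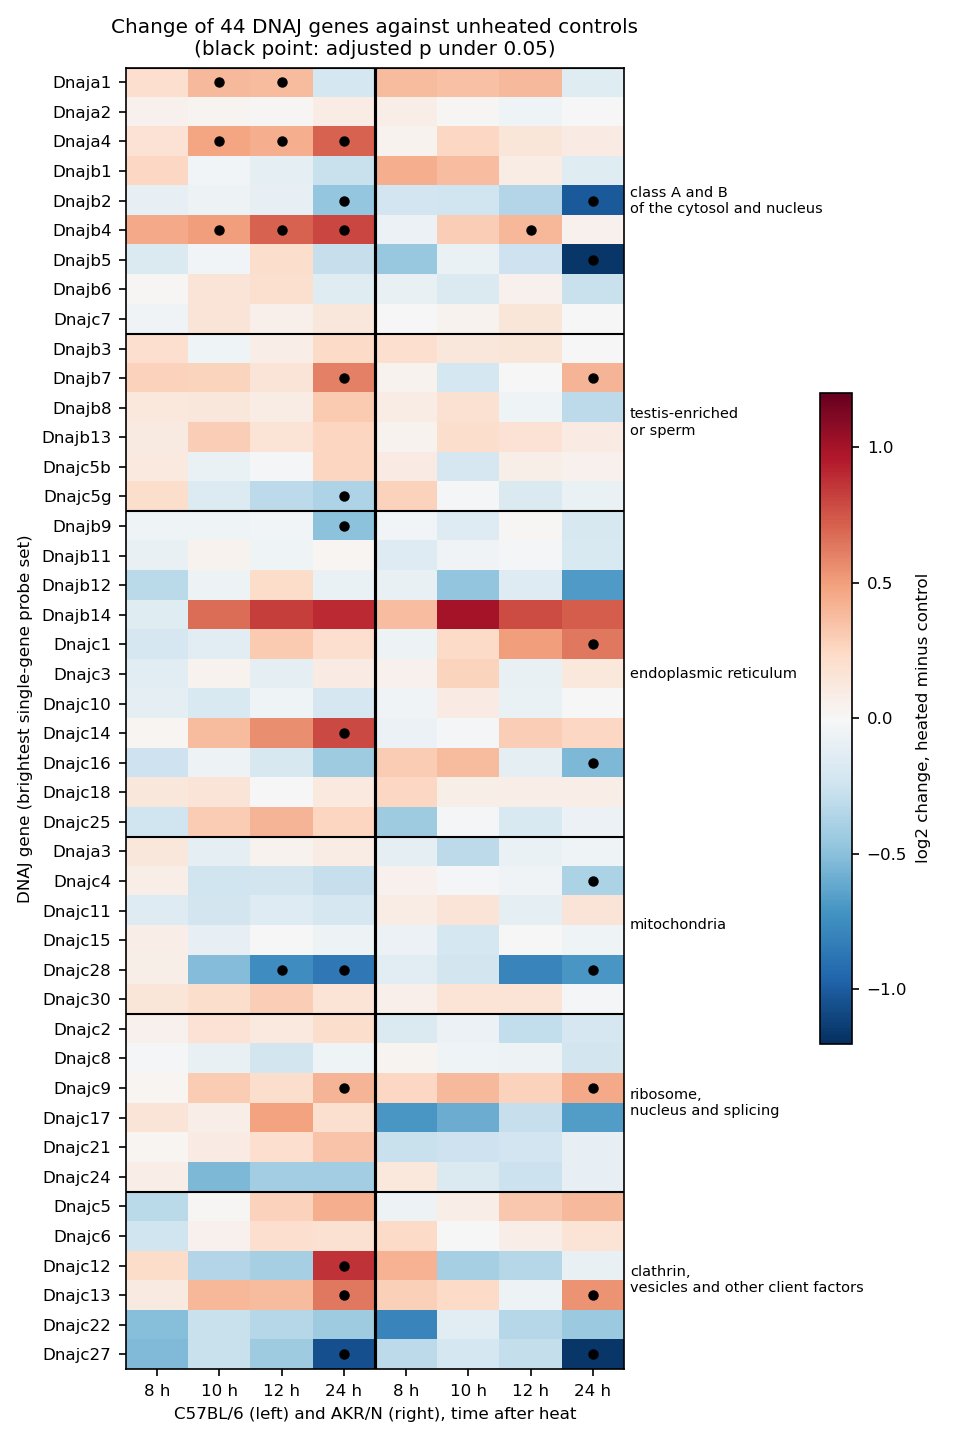
Log2 change against the control of the same strain for the 44 DNAJ members (rows, grouped by role) in 8 comparisons of strain and time (columns), with colour for the size and direction and a black point where the adjusted p was under 0.05. The called changes gather at 24 h, with 12 members in C57BL/6 and 10 in AKR/N, and no member was called at 8 h.

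Averaged over the 4 times, Dnaja4, Dnajb4, Dnajb7 and Dnajc13 rose and Dnajc27 fell in C57BL/6, 11.4% of the members against 21.4% of all genes. In AKR/N Dnajb2 fell and none rose, against 4.3% of all genes. The C57BL/6 count fell from 5 to 1 without control replicate 1 and to 2 without control replicate 2. In AKR/N none was called without either control, 8 h replicate 2 or 24 h replicate 2, and 2 were called without C57BL/6 12 h replicate 2. The median member change was 0.05 in C57BL/6 and 0.00 in AKR/N, and the median over all genes 0.03 and -0.03.

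The group of 9 genes for class A and B of the cytosol and nucleus also holds the class C gene Dnajc7. In C57BL/6 3 of the 9 rose at 10 h and at 12 h, and at 24 h 2 rose and 1 fell. In AKR/N 1 rose at 12 h and 2 fell at 24 h. Of all genes, 11.2%, 19.1% and 38% were called at 10, 12 and 24 h in C57BL/6. In AKR/N 7% were called at 12 h and 23.4% at 24 h. Dnaja1, a farnesylated class A partner of HSC70, is a gene whose probe sets disagreed. Its chosen probe set, 1416288_at, read 1939 and 1880 in C57BL/6 controls, 2352 and 2059 at 8 h, 2620 and 2406 at 10 h, 2439 and 2557 at 12 h and 1634 and 1656 at 24 h. The AKR/N arrays read 1954 and 1786 in controls, then 2283 and 2613, 2296 and 2488, 2361 and 2558, and 1639 and 1737. In both strains the arrays at 8, 10 and 12 h all lay above the controls and those at 24 h all lay below them. In C57BL/6 the log2 change was 0.39 at 10 h (SE 0.12, adjusted p 0.048) and 0.38 at 12 h (adjusted p 0.0366). At 24 h it was -0.21 (adjusted p 0.179), and over the mean of times 0.19 (SE 0.09, adjusted p 0.165). In AKR/N it was 0.39 at 12 h (adjusted p 0.0602) and 0.25 over the mean of times (adjusted p 0.143). The C57BL/6 call at 10 h was lost in 19 of 20 fits that left out 1 array, with an adjusted p of 0.149 without control replicate 1 and 0.218 without 10 h replicate 1.

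Another Dnaja1 probe set, 1460179_at, gave a far larger response. It read 257 and 275 in C57BL/6 controls, 724 and 729 at 8 h, 1569 and 1531 at 10 h, 1370 and 1576 at 12 h and 654 and 570 at 24 h. The AKR/N controls read 299 and 308, then 584 and 670, 1287 and 1173, 1538 and 1294, and 391 and 466. Every heated array of both strains lay above every control array, and the highest readings came at 10 and 12 h. After the data had been seen, all 28000 single-gene probe sets above the filter were tested each on its own, with p-values adjusted over all of them. In that fit 1460179_at rose by 1.40 at 8 h, 2.47 at 10 h, 2.40 at 12 h and 1.15 at 24 h in C57BL/6 (SE 0.14). In AKR/N the changes were 1.01, 1.96, 2.16 and 0.47, and all 8 were called, with the largest adjusted p of 0.0351 for AKR/N at 24 h. Over the mean of times the change was 1.86 in C57BL/6 (SE 0.11, adjusted p 1.23e-06) and 1.40 in AKR/N (adjusted p 3.84e-05), and it stayed called in all 20 fits without 1 array.

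The third Dnaja1 probe set, 1459835_s_at, whose suffix marks probes shared between transcripts, moved like 1460179_at. It read 225 and 184 in C57BL/6 controls against 1247 and 1150 at 10 h, and 264 and 256 in AKR/N controls against 868 and 759 at 10 h. The mean change was 1.85 in C57BL/6 (SE 0.18, adjusted p 8.38e-05) and 1.26 in AKR/N (adjusted p 0.00346), the latter lost without AKR/N control replicate 1 (adjusted p 0.0603). The disagreement between the Dnaja1 probe sets is therefore one of size at 8 to 12 h and of sign at 24 h, and which transcripts each reads was not analysed here.

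Dnaja4, another class A partner of HSP70, also had probe sets that disagreed, but here the chosen one was the higher against control at 24 h in C57BL/6. Its chosen probe set, 1418592_at, read 1144 and 1219 in C57BL/6 controls, 1313 and 1346 at 8 h, 1635 and 1650 at 10 h, 1577 and 1640 at 12 h and 1936 and 1945 at 24 h. AKR/N controls read 1158 and 1234, followed by 1232 and 1227, 1503 and 1340, 1261 and 1396, and 1185 and 1391. All heated C57BL/6 arrays lay above their controls and the 24 h arrays were the highest, whereas in AKR/N the heated and control arrays overlapped at 8 and 24 h. The C57BL/6 change was 0.47 at 10 h (SE 0.11, adjusted p 0.0196), 0.44 at 12 h (adjusted p 0.0174) and 0.71 at 24 h (adjusted p 0.000313). Its mean over times was 0.45 (SE 0.09, adjusted p 0.00385), lost without C57BL/6 control replicate 1 (adjusted p 0.0681). The 10 h call was lost without either control or either 10 h array (adjusted p up to 0.126), and the 12 h call without either control or 12 h replicate 2 (adjusted p up to 0.106). The mean in AKR/N was 0.13 (adjusted p 0.411).

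The Dnaja4 probe set 1434196_at had its peak earlier and was back near control at 24 h. It read 73.2 and 60.5 in C57BL/6 controls, 263 and 202 at 8 h, 340 and 429.5 at 10 h, 395 and 544 at 12 h and 70.1 and 85.3 at 24 h. AKR/N arrays read 37.7 and 64.0 in controls, 156 and 147 at 8 h, 274 and 346 at 10 h, 345 and 203 at 12 h and 54.7 and 71.2 at 24 h. Arrays at 8, 10 and 12 h lay above all controls in both strains, and those at 24 h overlapped the controls. Tested on its own, it rose by 2.27 at 10 h (SE 0.26, adjusted p 0.000654) and 2.54 at 12 h (adjusted p 0.00014) in C57BL/6 and by 2.31 and 2.10 in AKR/N (adjusted p 0.000825 and 0.00107). At 24 h the change was 0.18 in C57BL/6 (adjusted p 0.665) and 0.26 in AKR/N (adjusted p 0.529). Over the mean of times it was 1.64 (adjusted p 0.000404) and 1.51 (adjusted p 0.00336), the AKR/N value lost without AKR/N control replicate 1 (adjusted p 0.0823). The probe set 1418591_at of Dnaja4 was called at AKR/N 10 h alone, at 1.03 (SE 0.22, adjusted p 0.0213).

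**Figure D2:**
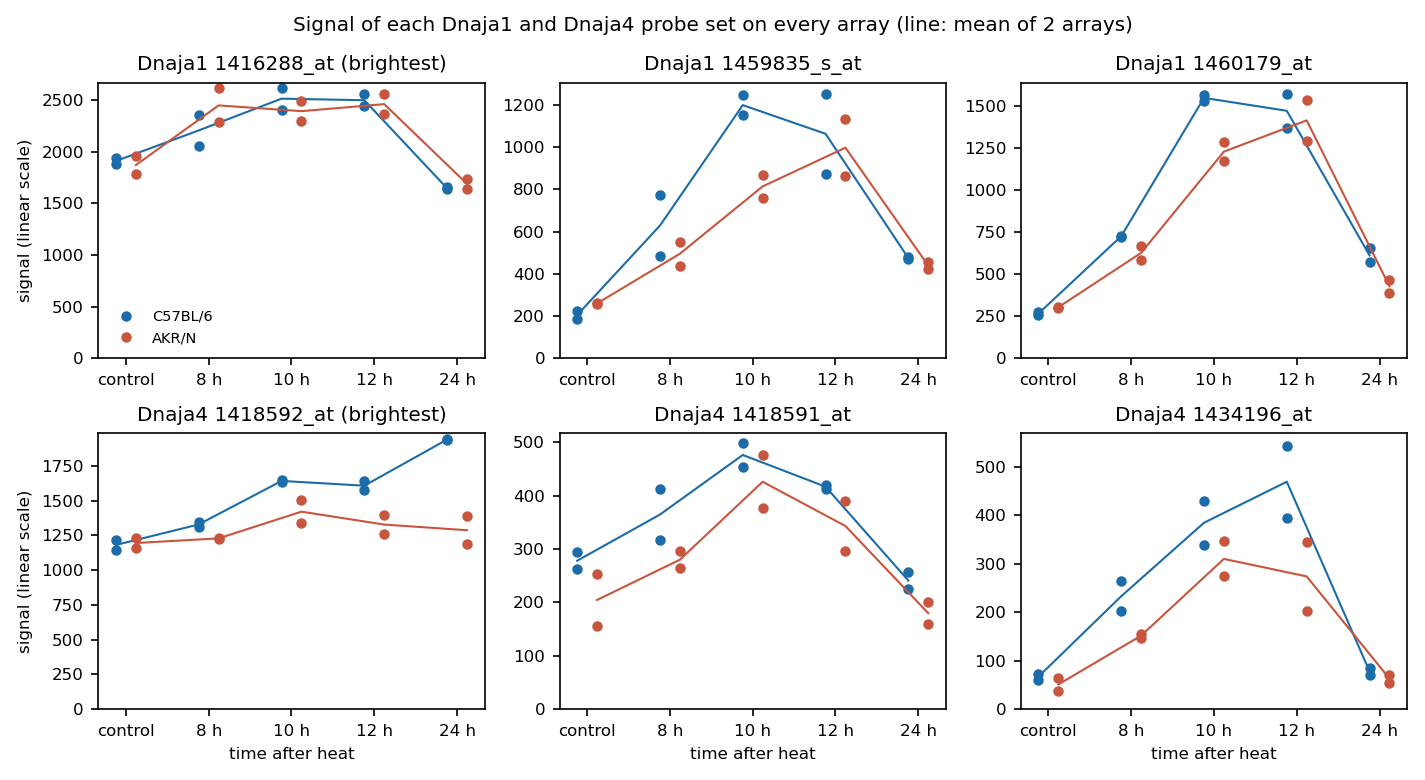
Signal (linear axis) of the 3 probe sets of Dnaja1 and the 3 of Dnaja4 on every array, by strain and condition, with 2 arrays per group. Dnaja1 1460179_at goes from 257 to 308 in controls to 1173 to 1569 at 10 h, whereas the chosen probe set 1416288_at stays between 1634 and 2620 throughout.

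Over the 98 member probe sets that passed the filter, 3 were called higher at 8 h in C57BL/6, 3.06% against 0.0893% of all 28000, namely 1434196_at of Dnaja4 and 1460179_at and 1459835_s_at of Dnaja1. In AKR/N at that time 1460179_at of Dnaja1 and 1448794_s_at of Dnajc2 were called higher, 2.04% against 0.121%. At 10 h 6 rose and 1 fell in C57BL/6, 7.14% against 7.2% of all, and 7 rose and 1 fell in AKR/N, 8.16% against 3.81%. At 12 h the counts were 6 and 6 in C57BL/6, 12.2% against 14.6%, and 4 and 0 in AKR/N, 4.08% against 5.24%. The 6 that rose in C57BL/6 were the same at 10 and 12 h, namely 2 of Dnaja1, 2 of Dnaja4, the chosen one of Dnajb4 and 1457233_at of Dnaja2, and the 4 in AKR/N at 12 h were the 2 of Dnaja1, 1434196_at of Dnaja4 and 1457233_at of Dnaja2. The late counts were 10 rises and 12 falls in C57BL/6 at 24 h, 22.4% against 31%, and 7 and 6 in AKR/N, 13.3% against 18.2%. Over the mean of times 7 rose and 4 fell in C57BL/6, 11.2% against 15.9%, and 5 rose and 1 fell in AKR/N, 6.12% against 3.9%. From 8 h to 24 h 11 rose and 13 fell in C57BL/6, 24.5% against 29.9%, and 3 rose and 18 fell in AKR/N, 21.4% against 18.7%. Between the strains 2 were higher and 4 lower in AKR/N controls, 6.12% against 4.78%, and 12 and 16 over all conditions, 28.6% against 22.5%.

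Dnajb1, the class B gene known as HSP40 and a textbook heat shock gene, was not called against control at any time in either strain on its chosen probe set. Its chosen probe set read 2670 and 3057 in C57BL/6 controls, 3456 and 3319 at 8 h, 2715 and 2855 at 10 h, 2811 and 2509 at 12 h and 2248 and 2488 at 24 h. The AKR/N series was 2302 and 2627 in controls, then 3328 and 3329, 2928 and 3442, 2650 and 2582, and 2421 and 2048. The 8 h arrays of both strains lay above their controls, and the C57BL/6 24 h arrays lay below theirs. The log2 change at 8 h was 0.24 in C57BL/6 and 0.43 in AKR/N (SE 0.13, adjusted p 0.315 in AKR/N), and over the mean of times -0.04 (SE 0.11, adjusted p 0.824) and 0.19 (adjusted p 0.316). From 8 h to 24 h it fell by 0.51 in C57BL/6 (adjusted p 0.00798, and 0.0724 without 24 h replicate 1) and by 0.58 in AKR/N (adjusted p 0.00741, and 0.0964 without 24 h replicate 2). Its other probe set, 1416755_at, read 1481 and 1628 in C57BL/6 controls and 776 and 740 at 24 h, a fall by 1.02 (SE 0.18, adjusted p 0.000676), whereas at 24 h in AKR/N the change was -0.24 (adjusted p 0.387). From 8 h to 24 h 1416755_at was called lower in C57BL/6, with changes of -1.656 to -1.435 when 1 array was left out. In AKR/N that step was not called, with changes of -0.637 to -0.357.

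Dnajb4, a class B partner of HSP70 in the cytosol, rose in C57BL/6 and read highest there at 24 h. It read 1376 and 1336 in controls, 1818 and 1898 at 8 h, 1761 and 2099 at 10 h, 2240 and 2205 at 12 h and 2354 and 2402 at 24 h. The AKR/N signal was 1586 and 1536 in controls, 1586 and 1395 at 8 h, 1972 and 1857 at 10 h, 2075 and 2062 at 12 h and 1610 and 1630 at 24 h. All heated C57BL/6 arrays lay above their controls, and in AKR/N those at 10 and 12 h stood highest while those at 8 h did not clear the controls. The C57BL/6 change was 0.50 at 10 h (SE 0.11, adjusted p 0.0143), 0.71 at 12 h (adjusted p 0.00137) and 0.80 at 24 h (adjusted p 0.00012), with a mean of 0.62 (SE 0.09, adjusted p 0.000676). In AKR/N it was 0.40 at 12 h (adjusted p 0.0482) and 0.05 at 24 h, with a mean of 0.17 (adjusted p 0.283). This chosen probe set carries a suffix for probes shared between transcripts of a gene, and another, 1451177_at, moved otherwise. It read 518 and 568 in C57BL/6 controls, 699.5 and 639 at 8 h and 386 and 424 at 24 h, and in AKR/N 539.7 and 543 in controls and 628.5 and 585 at 8 h. Every 8 h array lay above the controls of its strain, by 0.30 in C57BL/6 and 0.16 in AKR/N (SE 0.12, adjusted p 0.626 and 0.686). At 24 h in C57BL/6 it fell by 0.41 (adjusted p 0.0226), and its mean over times was -0.04.

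Dnajb2, whose product carries ubiquitin-binding motifs and passes clients to the proteasome, fell late in both strains. It read 1004 and 1059 in C57BL/6 controls and 735 and 749 at 24 h, and 813 and 777 in AKR/N controls and 416 and 361 at 24 h. The 24 h arrays were the lowest of each strain. The change at 24 h was -0.47 in C57BL/6 (SE 0.13, adjusted p 0.0134, and up to 0.0816 without control replicate 2 or either 24 h array) and -1.01 in AKR/N (adjusted p 0.000418). Over the mean of times it was -0.18 (adjusted p 0.247) and -0.46 (SE 0.11, adjusted p 0.031), the AKR/N value lost without either AKR/N control (adjusted p 0.238 without replicate 1 and 0.111 without replicate 2), 8 h replicate 2 or 24 h replicate 2.

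The other class A and B members moved little on the chosen probe set or moved at one time. Dnajb5 read 130 and 141 in AKR/N controls and 58.2 and 45.5 at 24 h, a fall by 1.17 (SE 0.21, adjusted p 0.00226), against -0.28 in C57BL/6. Of its 2 other tested probe sets, 1 went the other way in AKR/N at 24 h and neither was called. Dnaja2 changed by 0.05 and 0.01 over the mean of times, but its probe set 1457233_at read 82.6 and 65.0 in C57BL/6 controls and 207 and 187 at 24 h, and 32.4 and 42.2 in AKR/N controls and 80.6 and 109 at 24 h. Tested on its own, it rose by 1.25 in C57BL/6 and by 1.05 in AKR/N at 24 h (SE 0.18, adjusted p 0.000161 and 0.00201), and at 8 h it changed by -0.11 and 0.28, neither called. Dnajb6, an inhibitor of protein aggregation and the holder of the 3-unit element, changed by 0.05 and -0.12 over the mean of times, and its probe set 1429777_at fell by 0.69 in C57BL/6 and by 0.67 in AKR/N at 24 h (adjusted p 0.00174 and 0.00535). The Dnajb6 probe set 1429776_a_at was called lower in C57BL/6 at 12 h, at 24 h and over the mean of times. Another, 1434035_at, was called lower in AKR/N at 24 h. These probe sets and those of Dnajb5 were singled out after their values were seen.

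**Figure D3:**
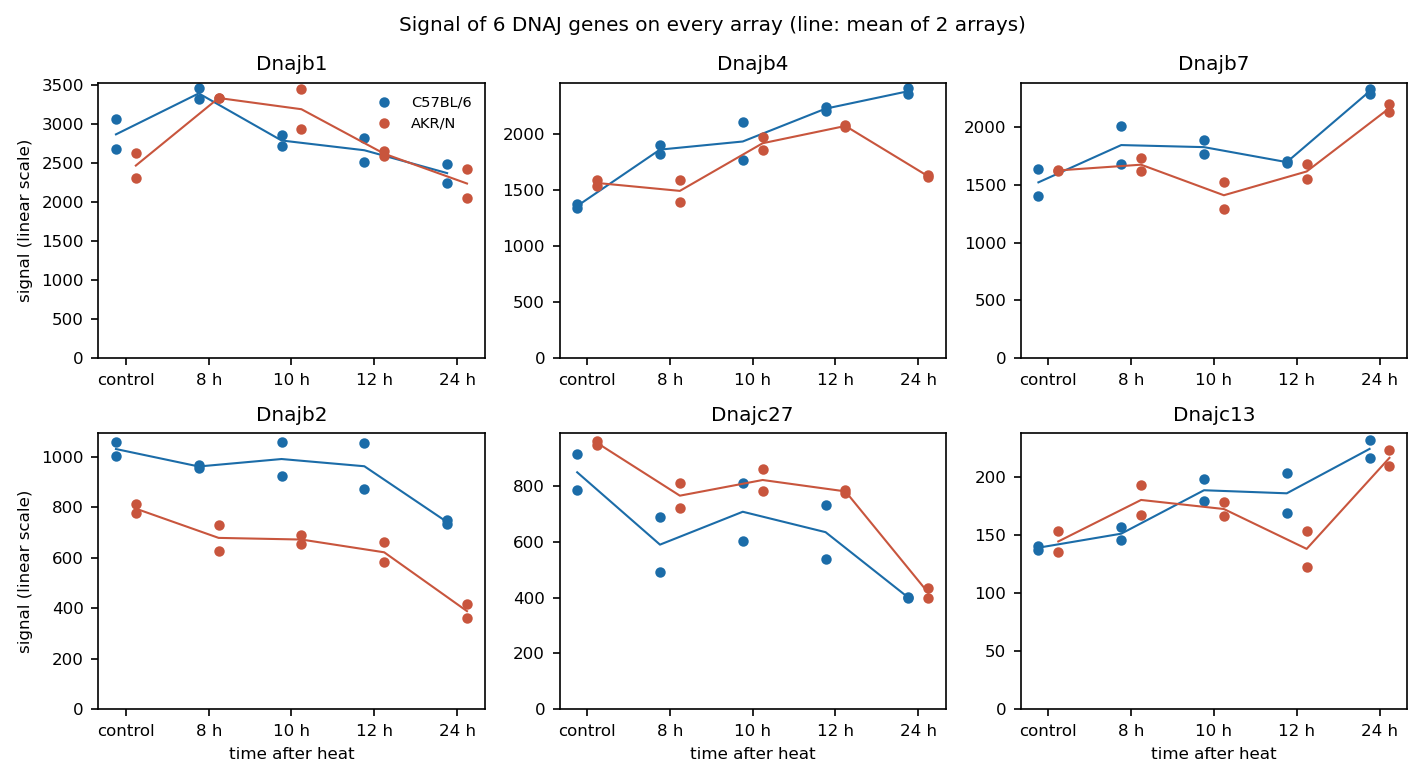
Signal on every array (linear axis) for Dnajb1, Dnajb4, Dnajb7, Dnajb2, Dnajc27 and Dnajc13, by strain and condition, 2 arrays per group. Dnajb4 reaches 2354 and 2402 at 24 h in C57BL/6 and 1610 and 1630 in AKR/N, and Dnajc27 falls to 399 to 435 at 24 h in both strains.

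Of the 6 members enriched in testis or sperm, Dnajb7 rose at 24 h in both strains and Dnajc5g, a germ cell relative of cysteine string protein, fell in C57BL/6. Dnajb7, an intronless gene, read 1635 and 1407 in C57BL/6 controls and 2333 and 2284 at 24 h, and 1621 and 1629 in AKR/N controls and 2128 and 2199 at 24 h. The 24 h arrays stood above all other arrays of their strain. Its change at 24 h was 0.60 in C57BL/6 (SE 0.13, adjusted p 0.00209) and 0.41 in AKR/N (adjusted p 0.0323), the latter lost without any 1 of the 4 arrays compared (adjusted p up to 0.161). Over the mean of times it was 0.32 (SE 0.10, adjusted p 0.0336) and 0.06, the former lost in 5 of 20 fits, with an adjusted p of 0.0646 without C57BL/6 control replicate 1 and 0.365 without replicate 2. Dnajc5g changed by -0.37 at 24 h in C57BL/6 (adjusted p 0.0249, and up to 0.219 without either control or 24 h replicate 1). The other 4 gave no call against control at 24 h: the sperm axoneme gene Dnajb13 changed by 0.26 in C57BL/6 and 0.10 in AKR/N, Dnajb3 by 0.23 and 0.00, Dnajb8 by 0.31 and -0.32 and Dnajc5b by 0.26 and 0.05. The summed signal of 10 elongating spermatid markers went from 73427 to 78639 in C57BL/6 controls to 90115 to 91645 at 24 h and from 79567 to 81302 to 78405 to 79334 in AKR/N, and its part in these values was not tested.

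Of the 11 members of the endoplasmic reticulum, Dnajc14 rose and Dnajb9 fell at 24 h in C57BL/6, and Dnajc1 rose and Dnajc16 fell in AKR/N. Dnajb9, also called ERdj4, is a target of the unfolded protein response. It read 1173 and 1101 in C57BL/6 controls and 770 and 844 at 24 h, and 1193 and 1240 in AKR/N controls and 1137 and 997 at 24 h. The C57BL/6 24 h arrays were the lowest of that strain. The change was -0.49 (SE 0.13, adjusted p 0.00722) in C57BL/6, lost without control replicate 1 (adjusted p 0.0542) or 24 h replicate 1 (adjusted p 0.0657), and -0.19 in AKR/N. Over the mean of times it was -0.15 (adjusted p 0.301) and -0.09. Dnajc14 rose by 0.79 (SE 0.21, adjusted p 0.00856, and 0.0942 without 24 h replicate 1) in C57BL/6. Its probe set 1426553_at read 83.3 and 102 in controls and 78.9 and 102 at 24 h, a change of -0.03 (adjusted p 0.929), and the Dnajc14 probe set 1437547_s_at changed by 0.31 (adjusted p 0.292). In AKR/N Dnajc16 changed by -0.54 (adjusted p 0.0424), lost in 11 of 20 fits without 1 array (adjusted p up to 0.309), and Dnajc1, a membrane protein of the same compartment, rose by 0.64 (adjusted p 0.0369, and up to 0.28 without control replicate 1 or 24 h replicate 2).

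Of the 6 mitochondrial members, Dnajc28 was called lower in both strains at 24 h, by 0.86 in C57BL/6 (adjusted p 0.00971) and by 0.70 in AKR/N (adjusted p 0.0417), and by 0.75 at 12 h in C57BL/6 (SE 0.23, adjusted p 0.0373). These calls were lost in 2, 8 and 3 of 20 fits that left out 1 array. Its other probe set, 1420542_at, changed by -0.76 in C57BL/6 and -0.49 in AKR/N at 24 h, the latter with an adjusted p of 0.0519. Dnajc4 fell by 0.38 in AKR/N at 24 h (adjusted p 0.0348, lost without any 1 of the arrays compared). Dnajc19, a subunit of the mitochondrial import motor, was read only by 3 probe sets shared with its pseudogene and was not tested. Of the 6 members of the ribosome, nucleus and spliceosome, Dnajc9, a histone chaperone, rose at 24 h by 0.41 in C57BL/6 (adjusted p 0.036) and by 0.46 in AKR/N (adjusted p 0.0348), lost in 4 and 3 of 20 fits that left out 1 array.

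Of the 6 members tied to clathrin, vesicles and other clients, Dnajc13 and Dnajc12 rose and Dnajc27 fell at 24 h in C57BL/6. Dnajc13, an endosomal protein also called RME-8, read 137 and 141 in C57BL/6 controls and 216 and 232 at 24 h, and 136 and 153 in AKR/N controls and 209 and 224 at 24 h. All C57BL/6 heated arrays lay above their controls, and in AKR/N the 12 h arrays did not. The change at 24 h was 0.63 in C57BL/6 (SE 0.14, adjusted p 0.00246) and 0.54 in AKR/N (adjusted p 0.013, and 0.101 at most without control replicate 1 or 24 h replicate 2), and over the mean of times 0.38 (adjusted p 0.0234) and 0.25 (adjusted p 0.192), the former lost without either C57BL/6 control (adjusted p 0.158 and 0.141). Its other probe set, 1445337_at, changed by -0.07 and 0.13 over the mean of times. Dnajc12, a co-chaperone of the aromatic amino acid hydroxylases, rose by 0.87 in C57BL/6 (SE 0.18, adjusted p 0.00191) and changed by -0.09 in AKR/N.

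Dnajc27, which joins a J domain to a Rab-like GTPase fold, read 784 and 914 in C57BL/6 controls, 688 and 492 at 8 h, 603 and 812 at 10 h, 537 and 731 at 12 h and 399 and 401 at 24 h. In AKR/N it read 961 and 948 in controls, 810 and 720 at 8 h, 860 and 782 at 10 h, 785 and 776 at 12 h and 435 and 400 at 24 h. The 24 h arrays were the lowest in both strains, well apart from their controls. The change at 24 h was -1.05 in C57BL/6 (SE 0.19, adjusted p 0.000578) and -1.17 in AKR/N (adjusted p 0.0011), and over the mean of times -0.57 (SE 0.15, adjusted p 0.0144) and -0.50 (adjusted p 0.0705), the former lost without either C57BL/6 control (adjusted p 0.0552 and 0.192). Its other probe set, 1434946_at, fell by 0.82 at 24 h in C57BL/6 (adjusted p 0.00275), but in AKR/N it was higher at 10 h, by 0.93 (adjusted p 0.0121), and changed by -0.43 at 24 h (adjusted p 0.108).

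The size of the step from 8 h to 24 h does not use the control arrays. They still enter its p-values, because all 20 arrays share 1 estimate of the spread. In C57BL/6 9 members rose and 9 fell, 40.9% of the members against 35.8% of all genes, of which 20.8% rose and 15% fell. In AKR/N 2 rose and 9 fell, 25.0% against 23.7% of all genes, of which 13.3% rose and 10.3% fell. On the chosen probe sets, the members that fell in both strains were Dnaja1, Dnajb1, Dnajb2, Dnajc4, Dnajc5g and Dnajc27, and none rose in both. With each probe set tested on its own, 1436179_a_at of Dnajc5 and 1457233_at of Dnaja2 were called higher in both. The share of all genes called in the same direction in both strains was not computed. Dnaja1 fell by 0.42 in C57BL/6 (SE 0.12, adjusted p 0.0138) and by 0.53 in AKR/N (adjusted p 0.0064). Dnaja4 and Dnajb4 rose in C57BL/6, by 0.54 (adjusted p 0.00233) and 0.35 (adjusted p 0.0254), while the Dnaja4 probe set 1434196_at fell in both strains, by 1.40 (adjusted p 0.00125) and 1.09 (adjusted p 0.0111). Among the other C57BL/6 rises, Dnajb14 of the endoplasmic reticulum rose by 1.04 (adjusted p 0.0333) and Dnajc5, which codes for cysteine string protein, by 0.75 (adjusted p 0.00705). Dnajb14 was dim and its 24 h arrays lay apart, with 36.5 and 45.4 at 8 h and 73.2 and 137 at 24 h. Its call was lost in 3 of 20 fits that left out 1 array, and its other probe set was not called. The C57BL/6 count fell from 18 to 6 without 24 h replicate 2, to 7 without 24 h replicate 1 or 8 h replicate 1 and to 10 without 8 h replicate 2. The AKR/N count fell from 11 to 2 without 24 h replicate 2, to 4 without 8 h replicate 1 and to 5 without 8 h replicate 2. Median centring, which moves the median of all genes by -0.18 in this C57BL/6 comparison, left no call among the rises and 9 falls in each strain. The 9 C57BL/6 rises kept their sign under it, for example 0.37 for Dnaja4 (adjusted p 0.0651) and 0.18 for Dnajb4 (adjusted p 0.37). Quantile normalization, which moves that median by -0.1, gave 8 rises and 5 falls in C57BL/6.

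**Figure D4:**
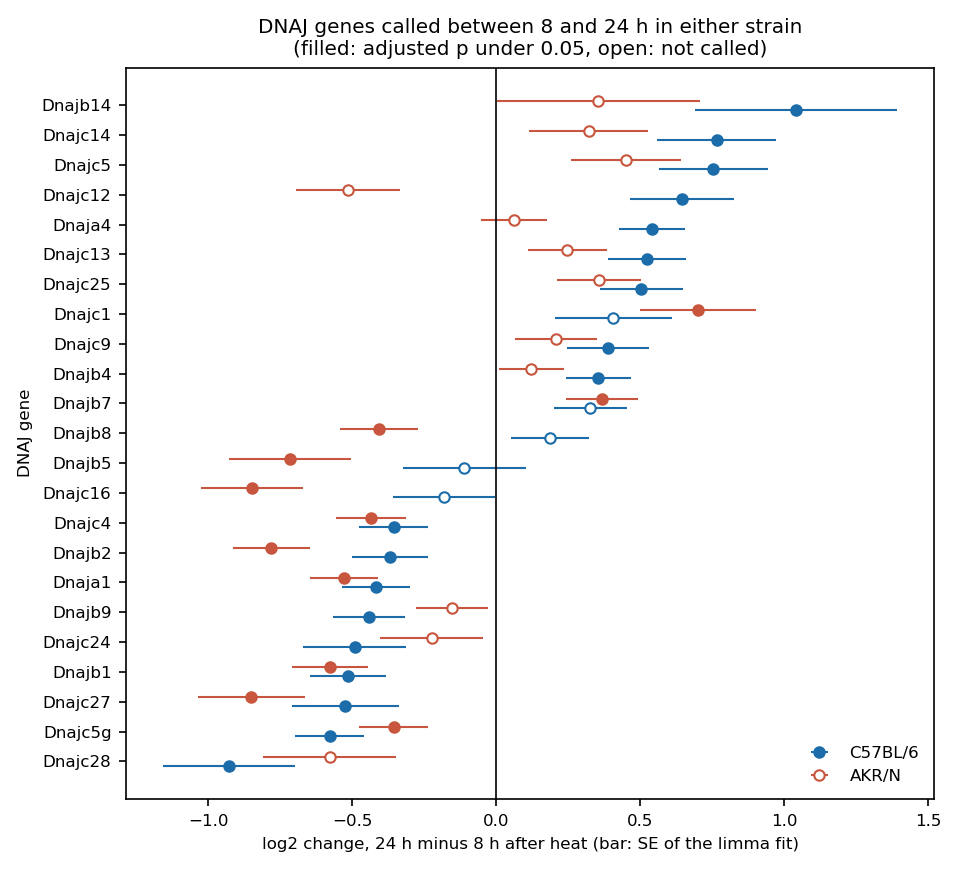
Log2 change from 8 h to 24 h for the 23 members called in either strain, C57BL/6 and AKR/N side by side, where the bar is the SE of the limma fit. Dnaja1 lies at -0.42 and -0.53 and Dnajb1 at -0.51 and -0.58, whereas Dnaja4 lies at 0.54 in C57BL/6.

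The partners of these co-chaperones were read from lists of genes fixed with the design, when earlier results of these data were already known. Their counts beside those of all genes are therefore descriptive and give no independent support. Of 13 HSP70 and HSP110 genes, 4 rose at 8 h in C57BL/6 and 1 in AKR/N, where 0.0888% and 0.0381% of all genes were called. Over the mean of times 5 rose and 1 fell in C57BL/6 and 4 rose in AKR/N, where 21.4% and 4.3% of all genes were called. Hspa8, the constitutive HSC70, rose by 1.40 over the mean of times in C57BL/6 (SE 0.09) and by 0.97 in AKR/N (adjusted p 0.000188), and Hspa1b by 5.26 and 2.94 (adjusted p 8.3e-05 and 0.00946), where Hspa1a and Hspa1b are near-identical and their probes may share transcripts. At 24 h Hspa8 was still up by 1.003 in C57BL/6 and changed by 0.17 in AKR/N (adjusted p 0.304). Hsph1, the HSP110 exchange factor, rose by 1.08 and 0.97. Of 15 exchange factors and HSP70 co-factors, 2 rose and 1 fell over the mean of times in C57BL/6, and 1 rose in AKR/N, against the same 21.4% and 4.3%. Chordc1, an HSP90 co-chaperone, rose in both by 0.89 (adjusted p 0.00195) and 0.63 (adjusted p 0.0408), Bag2 rose by 0.40 in C57BL/6 (adjusted p 0.0414), and St13, the HSC70-interacting protein, changed by -0.53 in C57BL/6 (adjusted p 0.0188).

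Of the heat shock factors and HSP90 genes 6 of 8 were tested, and over the mean of times Hsf5 alone was called, changing by -0.38 in C57BL/6 (adjusted p 0.0161). The unfolded protein response list of 17 had 3 rises and 2 falls over the mean of times in C57BL/6 and 2 rises in AKR/N, where 21.4% and 4.3% of all genes were called. Xbp1 rose by 0.87 (adjusted p 0.00122) and 1.22 (adjusted p 0.00127), Ppp1r15a by 1.12 (adjusted p 0.00279) and 0.95 (adjusted p 0.0291), and Sdf2l1, an endoplasmic reticulum protein that binds DNAJB11, changed by -0.95 in C57BL/6 (adjusted p 0.00298) and -0.39 in AKR/N. Beside them, Dnajb9 and the other DNAJ members of that compartment gave no call over the mean of times in either strain.

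The second question is how the strains differ. In controls AKR/N was higher than C57BL/6 in Dnajc16 and Dnajc5g and lower in Dnajc2, 6.82% of the members against 6.29% of all genes, and any 1 control array left out lowered the count from 3 to 1. With all 5 conditions averaged, 6 members were higher and 9 lower in AKR/N, 34.1% against 27.8%. Higher were Dnajc3, Dnajc4, Dnajc5g, Dnajc10, Dnajc16 and Dnajc28, and lower were Dnaja2, Dnaja4, Dnajb2, Dnajb4, Dnajb8, Dnajc2, Dnajc6, Dnajc9 and Dnajc30. Of these, Dnajc6 read only 4.18 to 28.7 over all arrays. Its AKR/N group means, log2 4.71 to 4.94, all lay below the filter, which it passed only through C57BL/6. Its call therefore gives no evidence of a strain difference. The Dnajb4 difference, -0.16 (adjusted p 0.0348), was lost in 14 of 20 fits without 1 array (adjusted p up to 0.0837), and its probe set 1451177_at gave 0.02 (adjusted p 0.89). Among controls the Leydig marker sum was 4130 to 4279 in AKR/N against 1911 to 2151 in C57BL/6, with 5 of 6 markers called higher. The macrophage and leukocyte sum was 1208 to 1300 against 870 to 874, with 1 of 10 called higher, and the round spermatid sum 13838 to 16875 against 18586 to 19620, with 2 of 10 called lower. The part of these in the strain differences was not tested.

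Dnajc2, also called zuotin or MPP11, which docks HSP70 at the ribosome, read 1666 and 1778 in C57BL/6 controls and 986 and 923 in AKR/N controls. Over all times it lay between 1666 and 2085 in C57BL/6 and between 724 and 986 in AKR/N, with no overlap. The AKR/N difference was -0.84 in controls (SE 0.12, adjusted p 0.00077) and -1.10 over all conditions (SE 0.05, adjusted p 3.48e-09). The probe sets 1448794_s_at and 1454219_at were also lower in AKR/N, with differences of -1.09 and -0.32 (adjusted p 0.00898) over all conditions, when tested on their own. Probe sequences and strain variants under them were not analysed here.

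Dnajc5g read 636 and 644 in C57BL/6 controls and 891.5 and 934 in AKR/N controls, and over all conditions 452 to 756 in C57BL/6 and 755 to 1132 in AKR/N. The ranges touch only at their ends. The difference was 0.50 in controls (SE 0.12, adjusted p 0.0226), not called without any 1 of the controls (adjusted p 0.0918 to 0.119), and 0.63 over all conditions (adjusted p 8.23e-07). Dnajc16 read 112 and 122 in C57BL/6 controls and 198 and 191 in AKR/N controls, with a difference of 0.66 (SE 0.18, adjusted p 0.0425) in controls and 0.85 over all conditions (adjusted p 2.59e-06). Its other probe set, 1434781_at, ran the other way at -0.28 over all conditions (adjusted p 0.0519).

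For Dnajb2 the AKR/N difference was -0.59 over all conditions (SE 0.06, adjusted p 5.37e-06) and -0.37 in controls (adjusted p 0.128). Dnajc10 and Dnajc3, a disulfide reductase and an inhibitor of eIF2α kinases in the endoplasmic reticulum, were higher by 0.35 and 0.34 (adjusted p 0.000125 and 0.000231), and 2 further probe sets of Dnajc3 were called the same way. The germ cell gene Dnajb8, which suppresses aggregation, was lower, with a difference of -0.33 (adjusted p 0.000881).

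**Figure D5:**
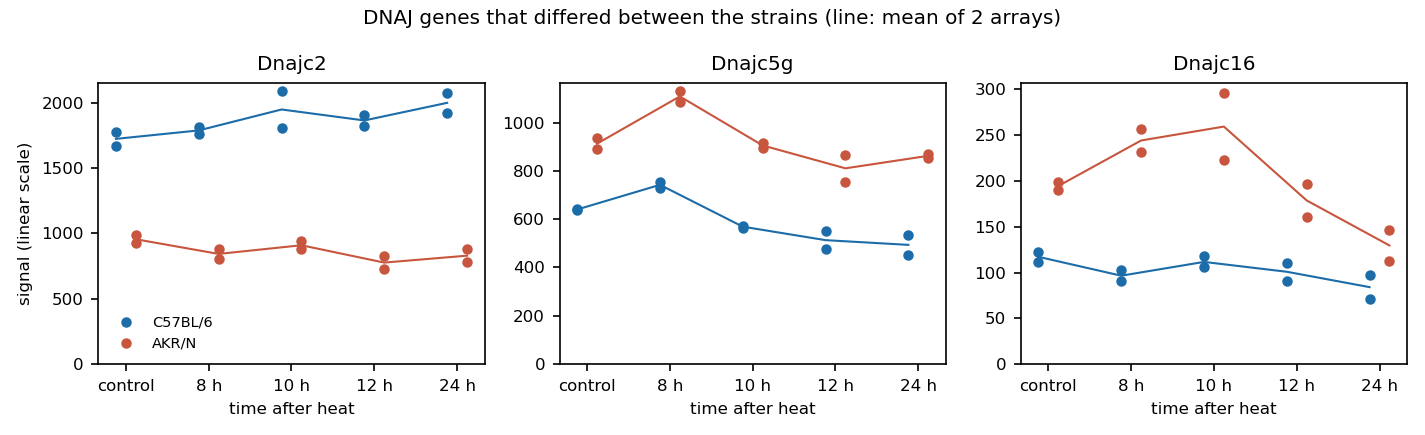
Signal on every array (linear axis) for Dnajc2, Dnajc5g and Dnajc16 by strain and condition, 2 arrays per group. Dnajc2 lies between 1666 and 2085 in C57BL/6 and between 724 and 986 in AKR/N.

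The last comparison asked whether heat moved a member differently in the 2 strains, by the interaction of strain and heat. Averaged over times no member was called with limma, with 6 at an unadjusted p under 0.05 and 0.019% of all genes called, and by the F test over the 4 times none was called, with 4 at an unadjusted p under 0.05 and 0.0825% of all genes called. At 24 h Dnajb4 was called, 1 of 44 against 1.76% of all genes, with a heat change in AKR/N minus that in C57BL/6 of -0.75 (SE 0.16, adjusted p 0.0391), lost in 12 of 20 fits that left out 1 array. With each probe set tested on its own no member was called at 24 h, where 0.775% of all were, and the adjusted p of the same probe set was 0.0593, and the probe set 1451177_at gave 0.27 (adjusted p 0.456). For Dnaja4 the interaction at 24 h was -0.61 (SE 0.16, adjusted p 0.071) and for Dnajb2 -0.54 (adjusted p 0.137). Larger than these, and not called, were -0.96 for Dnajc12, -0.89 for Dnajb5, -0.87 for Dnajc17 and -0.63 for Dnajb8. At 10 h the Dnajc2 probe set 1448794_s_at was called on its own, 1 of 98 against 0.118% of all probe sets. It read 212 and 229 in AKR/N controls and 465 and 459 at 10 h, whereas in C57BL/6 it read 758 and 679 and then 621 and 600, an interaction of 1.24 (SE 0.18, adjusted p 0.0242). The arrays of 10 h were above control in AKR/N and below it in C57BL/6. The chosen Dnajc2 probe set read 986 and 923 in AKR/N controls and 941 and 877 at 10 h, so the rise was not seen there.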

How the data were processed

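The authors' deposited table holds 1 signal per probe set and array, an intensity on a linear scale. How the authors summarised and scaled the probes is not given in the sources used here. Once the highest and lowest 2% of values are dropped, each array averages 125. RNA was taken with Trizol and amplified from the 3' end, per the labels' protocols, and the beta-actin 3'/5' ratio lay between 1.87 and 3.57.

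Of 45101 probe sets, 64 controls were left out, 34945 were assigned to 1 gene and used, 932 to several and 9160 to none. Signals became log2(signal + 16), which understates changes of low genes. Genes whose highest group mean reached the 40th percentile (log2 5.07, a signal of 17.5) were tested. limma 3.58.1 in R 4.3.3 fitted 1 mean per group to 20 arrays (prior degrees of freedom 3.54, residual 10), with Benjamini-Hochberg adjustment over 15762 genes. Every adjusted p is a limma value, and SE is the fit's standard error. The script was tested on simulated data. A separate fit of 28000 single-gene probe sets was added after seeing the data. Promoter windows came from RefSeq on GRCm38.p6, and plots from matplotlib 3.10.9.

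Members given in full are the called rises and falls of largest mean change (up to 6 each per strain), up to 4 members of smallest adjusted p in each strain difference, and Dnajb1, Dnaja1 and Dnajb9 in any case. Other members and probe sets named were chosen after their values were seen. Up to 3 genes per partner list are named. The members and all lists were chosen with earlier results of these data known. The 9 alternatives fixed with the design are no filter, a pseudocount of 4, median centring, quantile normalization, the mean of all probe sets, probe sets without a suffix, a fit per strain, the replicate block and each array left out. No spot-level image was used here.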

Additional observations from a re-analysis of the deposited data

Results flagged for a closer look

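The heat effect at 24 h on Dnajb4 differed between the strains by -0.75 (AKR/N minus C57BL/6, SE 0.16, adjusted p 0.0391 by limma's interaction term). All C57BL/6 arrays at 24 h lay above their controls and those of AKR/N did so by a small margin. The call was lost with no filter, with median centring, with the replicate block, with the mean of all probe sets, in 12 of 20 fits without 1 array and when the probe sets were tested one by one.

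The heat effect at 10 h on the Dnajc2 probe set 1448794_s_at differed by 1.24 (SE 0.18, adjusted p 0.0242 by limma's interaction term over 28000 probe sets). Leaving out 1 array at a time gave 1.17 to 1.32 with adjusted p from 0.0276 to 0.121, called in 13 of 20 fits. With median centring it was 1.27 and not called.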

How the results depend on the processing

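With 2 arrays a group the counts of called members depend on the setting. With no filter on low signal, AKR/N 12 h and the 24 h interaction went from 1 to 0. With median centring C57BL/6 10 h went from 3 to 0, its mean from 5 to 3, its 24 h against 8 h from 18 to 9, AKR/N 12 h from 1 to 0, AKR/N 24 h from 10 to 4, its mean from 1 to 0, the strain difference in controls from 3 to 1 and the 24 h interaction from 1 to 0. This centring moved the median of all genes by -0.13 in C57BL/6 at 12 h, -0.12 at 24 h and 0.10 in AKR/N at 8 h, and it turned no direction of a called member. Quantile normalization took AKR/N 12 h from 1 to 2. Averaging all probe sets of a gene took C57BL/6 8 h from 0 to 1, AKR/N 10 h from 0 to 3, AKR/N 12 h from 1 to 2, its mean from 1 to 4 and the interaction from 1 to 0, and it gave Dnaja1 a mean change of 1.30 in C57BL/6 and 0.97 in AKR/N. Probe sets without a suffix took C57BL/6 10 h from 3 to 1, its mean from 5 to 3, AKR/N 10 h from 0 to 1, AKR/N 12 h and mean from 1 to 0, AKR/N 24 h against 8 h from 11 to 7 and the interaction from 1 to 0. They turned Dnajb4 to -0.039 over the C57BL/6 mean and to 0.27 in the 24 h interaction. A fit of 1 strain, with fewer samples, took C57BL/6 10 h from 3 to 1, 12 h from 4 to 2 and the mean from 5 to 3, and AKR/N 12 h from 1 to 0, 24 h from 10 to 5, the mean from 1 to 0 and 24 h against 8 h from 11 to 7. A pseudocount of 4 moved no count by over 1.5 times.

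The replicate numbers are not stated to pair the arrays. Deviations of same-numbered arrays correlated with r from -0.28 to 0.30 over 45 pairs of groups, 4 of them over 0.1. These r values cannot settle whether some arrays were handled together. The replicate block took AKR/N 12 h from 1 to 0 and the 24 h interaction from 1 to 0.

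Leaving out 1 array at a time gave these ranges of called members in C57BL/6: 0 to 0 at 8 h, 0 to 3 at 10 h, 1 to 4 at 12 h, 9 to 14 at 24 h, 1 to 6 for the mean and 6 to 17 for 24 h against 8 h. In AKR/N they were 0 to 0 at 8 and 10 h, 0 to 2 at 12 h, 3 to 11 at 24 h, 0 to 2 for the mean and 2 to 11 for 24 h against 8 h. They were 1 to 3 for the strains in controls, 14 to 17 over all conditions, 0 to 1 for the 24 h interaction and 0 to 0 for the mean interaction. The C57BL/6 mean change of Dnajb1 ran from -0.139 to 0.055, and it turned positive without C57BL/6 control replicate 2. The change of Dnaja1 1459835_s_at from 8 h to 24 h in AKR/N ran from -0.321 to 0.003, and it turned positive without AKR/N 8 h replicate 2.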
